A study of Mus musculus with 2 samples.

Results

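The replication-dependent histone genes are the clustered genes that supply the nucleosome with its core histones (H2A, H2B, H3 and H4) and its linker histone (H1). They were taken as the protein-coding genes of the GENCODE M21 annotation whose symbol starts with Hist1h, Hist2h, Hist3h or Hist4h. This rule uses names and not levels, and it was set with earlier results of these data known. Of 67 such genes, 64 had a row in both deposited gene tables, among 43346 genes in all, and 3 (Hist1h2bh, Hist1h2bm and Hist2h2bb) were not analysed here. The 64 comprised 6 H1, 18 H2A, 15 H2B, 12 H3 and 13 H4 genes. They lie in a large Hist1 cluster on chromosome 13 (52 genes), in Hist2 on chromosome 3 (9 genes), in Hist3 on chromosome 11 (2 genes) and at Hist4 on chromosome 6 (1 gene).

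The samples were 2 RNA-seq libraries of whole small intestine from adult mice of strain C57BL/6J, aged 8 weeks, with tissue pooled from males and females. They are biological replicates 1 and 2 of a single untreated group and come from separate biosamples, so no comparison between conditions exists and every difference between them is given as a description. RNA longer than 200 nt was depleted of rRNA, selected for poly(A) and sequenced as stranded pairs of 76-base reads, with spike-in RNA added. Replicate 1 held 45472946 and replicate 2 held 45822403 estimated fragments.

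Most replication-dependent histone mRNAs do not end in a poly(A) tail. Their 3′ end is cut just past a short stem-loop, which is bound by the stem-loop binding protein Slbp, and the mRNAs accumulate while DNA is copied. Some of these genes are also known to give polyadenylated transcripts that run past the stem-loop, mainly in cells that have stopped dividing. The small intestine holds both kinds of cell, since crypt cells divide and villus cells do not. In bulk tissue, fewer cells of a type and less RNA per cell cannot be told apart.

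The stem-loop was searched as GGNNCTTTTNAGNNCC on the sense strand after the stop codon of 1 annotated GENCODE M21 transcript per gene. Of the 64 genes, 42 held these letters, 21 to 58 nt after the stop codon (median 31.5). Among all 67 annotated genes 65.7% held them, against 34 of 21884 other protein-coding genes (0.155%), among which was H2afx. No match says only that the letters are not in that annotated transcript. The 42 sites used 6 different 16-base sequences, of which the most frequent occurred in 24 genes of H1, H2A, H2B and H3. H4 genes used other letters: 7 had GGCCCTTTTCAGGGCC, 2 had GGCCCTTTTTAGGGCC and 2 had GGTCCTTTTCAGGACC. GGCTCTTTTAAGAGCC was found in 6 H1, H2B and H3 genes, and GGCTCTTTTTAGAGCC in Hist2h2ac. The gene with the highest mean level for each sequence is shown here, with Hist1h1c added because its annotated transcript goes on far past the loop. Capitals mark the stem-loop, written as DNA from 5′ to 3′ on the gene's strand, on GRCm38 (the assembly also called mm10).
Hist1h2ap, chr13:21833026-21833049, minus strand: aaaaaGGCTCTTTTCAGAGCCatc
Hist1h1c, chr13:23739507-23739532, plus strand: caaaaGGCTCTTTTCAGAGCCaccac
Hist1h3c, chr13:23745042-23745067, minus strand: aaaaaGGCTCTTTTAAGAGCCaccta
Hist2h2ac, chr3:96220413-96220438, minus strand: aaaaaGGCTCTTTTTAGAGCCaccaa
Hist1h4d, chr13:23581945-23581970, plus strand: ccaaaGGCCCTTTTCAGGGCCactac
Hist1h4i, chr13:22040961-22040986, minus strand: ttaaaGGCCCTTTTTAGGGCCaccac
Hist1h4b, chr13:23757361-23757386, plus strand: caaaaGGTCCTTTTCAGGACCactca

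Histone fragments were present in both poly(A) libraries, at a small share. The 64 genes received 50942 fragments in replicate 1, or 0.112% of the library (exact binomial 95% interval 0.111 to 0.113%). In replicate 2 they received 84974 fragments, or 0.185% (0.184 to 0.187%). The mean was 0.149 ± 0.0519% (SD, n = 2), and these intervals cover counting error only. On the TPM scale, a relative level that divides fragments by the length of transcript they can come from, the genes summed to 3489 TPM in replicate 1 against 6737 TPM in replicate 2. The share was larger in TPM (0.349% and 0.674%) beside short models, whose median effective length was 245 and 263 nt, against 1876 and 1897 nt for all genes with a mean of at least 1 TPM. Small effective lengths make TPM sensitive to the fragment length, which averaged 237 nt in replicate 1 and 219 nt in replicate 2. Hist1h4k, an H4 gene with a model of 312 nt, reached 28.5 and 45.1 TPM with 111 and 168 fragments. Hist2h2be, an H2B gene with a model of 2620 nt, reached 0.78 and 1.13 TPM with 94 and 107 fragments.

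At least 1 TPM in both libraries was reached by 54 of the 64 genes (84.4%), against 25.8% of all genes and 49.3% of protein-coding genes. Of the other 10, 5 had no fragment in either library, namely Hist1h2aa, Hist1h2ao, Hist1h2ba, Hist1h1t and Hist2h3c1. Hist1h1t, Hist1h2aa and Hist1h2ba are the testis members of the family, expressed in male germ cells. For these 5 genes, a count of 0 allows up to 3 fragments, which is 0.0372 to 0.398 TPM in replicate 1, with 0.0475 to 0.458 TPM for replicate 2. That limit covers counting only: the deposited upper interval bounds were higher for Hist1h2ao (0.653 and 0.668 TPM) and Hist2h3c1 (0.0809 and 0.220 TPM). Hist1h2ao and Hist2h3c1 have coding sequences identical to those of Hist1h2ap and Hist2h3c2, so their 0 depends on how shared fragments were assigned.

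**Figure D1:**
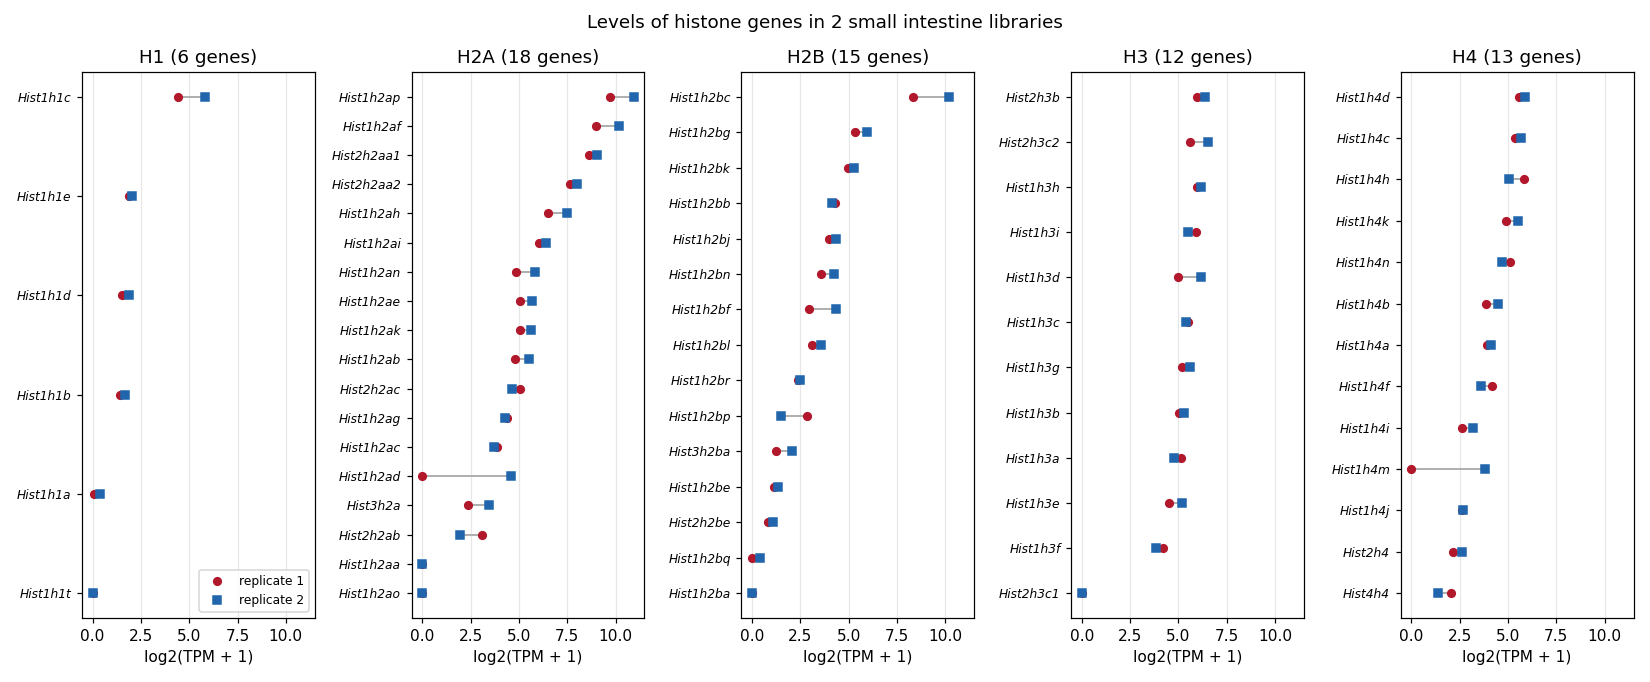
Level of each of the 64 genes as log2(TPM + 1) on the horizontal axis, in 1 panel per histone type, with circles for replicate 1 and squares for replicate 2 joined by a line. H2A holds 4 and H2B 1 of the 5 genes above 100 TPM in both libraries, and no gene of H1, H3 or H4 passes 100 TPM.

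The linker histone genes were the lowest type in TPM. The 6 H1 genes summed to 26.8 TPM in replicate 1 against 63.9 TPM in replicate 2, which was 0.769% and 0.948% of the histone TPM. Their share of histone fragments was higher, at 3.03% and 3.66%, since H1 models are longer. Hist1h1c made up most of it, with 20.55 TPM in replicate 1 against 55.70 TPM in replicate 2. Hist1h1e had 2.69 and 3.08 TPM, Hist1h1d 1.90 and 2.64 TPM, and Hist1h1b 1.63 and 2.17 TPM. Hist1h1a had 0.05 and 0.30 TPM, from 1 and 5 fragments. Hist1h1c was thus above the other H1 genes in both libraries, and the credibility intervals deposited with the values, whose level the sources do not state, did not touch theirs.

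H2A was the highest type in both libraries. Its 18 genes summed to 2286 TPM in replicate 1 against 4468 TPM in replicate 2, or 65.5% and 66.3% of the histone TPM. Hist1h2ap (chromosome 13, positions from 21833026 in mm10) led with 836 TPM in replicate 1 against 1972 TPM in replicate 2, and ranked 88 among all genes by mean TPM. Hist1h2af followed with 512 and 1153 TPM. These 2 genes differ by 1 amino acid and are identical over 98.5% of the coding bases. The Hist2 pair Hist2h2aa1 and Hist2h2aa2, which encode the same protein, had 393 and 531 TPM and 196 and 254 TPM.

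The other H2A genes were lower. Hist1h2ah had 89.6 TPM in replicate 1 against 182 TPM in replicate 2, and Hist1h2ai had 63.6 and 84.8 TPM. Hist1h2an, Hist1h2ae, Hist1h2ak and Hist1h2ab lay between 26.74 and 32.73 TPM in replicate 1 and, higher, between 45.29 and 55.93 TPM in replicate 2. Hist2h2ac (32.4 and 23.5 TPM), Hist1h2ag (19.6 and 18.5 TPM) and Hist1h2ac (13.7 and 11.9 TPM) were the members of this middle range with more in replicate 1. The Hist3 gene Hist3h2a had 4.21 and 9.88 TPM, and Hist2h2ab had 7.36 and 2.80 TPM.

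H2B depended on a single gene. The 15 H2B genes summed to 464 TPM in replicate 1 against 1351 TPM in replicate 2 (13.3% and 20.0% of the histone TPM), and Hist1h2bc alone had 321 and 1154 TPM. It received more fragments than any other histone gene in replicate 2 (23567), while Hist1h2ap received the most in replicate 1 (10476, against 8176 for Hist1h2bc). The deposited model of Hist1h2bc is 736 nt long, and the later M21 annotation gives it 1156 nt. Hist1h2be and Hist1h2bg encode the same protein as Hist1h2bc and had 1.22 and 1.53 TPM and 39.5 and 61.8 TPM. Next were Hist1h2bk with 30.2 and 37.7 TPM, Hist1h2bb with 18.8 and 16.9 TPM, and Hist1h2bj with 14.9 and 19.7 TPM. Without Hist1h2bc, the other 14 H2B genes summed to 142 TPM in replicate 1 against 196 TPM in replicate 2.

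H3 and H4 genes were more even. The 12 H3 genes summed to 446 TPM in replicate 1 against 562 TPM in replicate 2, or 12.8% and 8.34% of the histone TPM. Hist2h3b had 62.3 and 83.1 TPM, Hist2h3c2 47.6 and 90.6 TPM, Hist1h3h 61.3 and 70.4 TPM, and Hist1h3i 58.4 and 44.6 TPM. Apart from Hist2h3c1 at 0, no H3 gene was under 13 TPM in either library: the lowest was Hist1h3f with 17.8 and 13.6 TPM.

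The 13 H4 genes summed to 266 TPM in replicate 1 against 293 TPM in replicate 2, or 7.63% and 4.35% of the histone TPM. All 13 encode the same protein of 103 residues. Hist1h4d had 46.4 and 58.8 TPM, Hist1h4c 40.3 and 49.9 TPM, Hist1h4k the values above, and Hist1h4h 56.7 and 32.0 TPM. The highest H4 gene therefore differed between the libraries, being Hist1h4h in replicate 1 and Hist1h4d in replicate 2. At the low end were Hist4h4 with 3.13 and 1.60 TPM, Hist2h4 with 3.37 and 5.16 TPM, and Hist1h4m with 0 and 13.1 TPM.

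**Figure D2:**
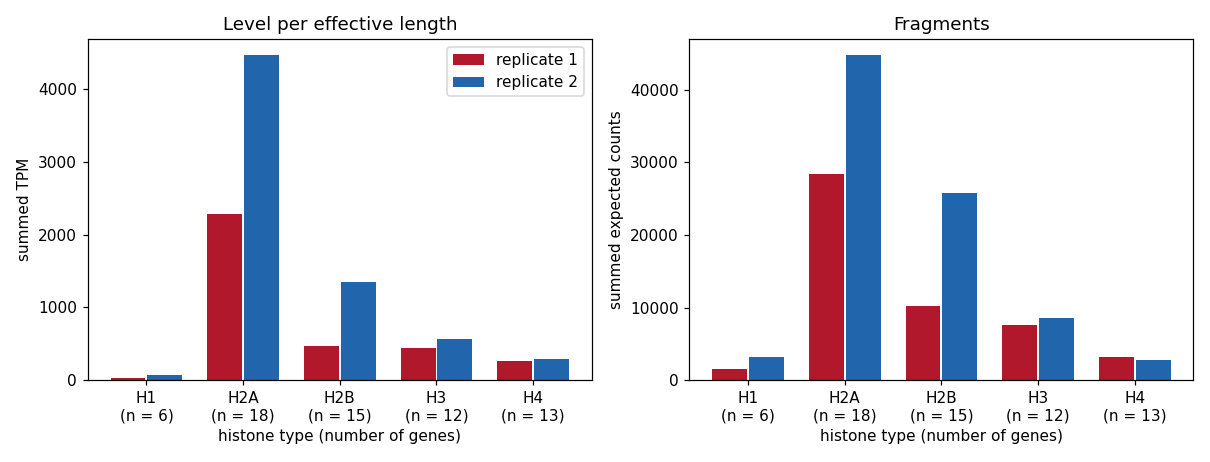
Summed TPM (left axis) and summed expected counts (right axis) of each histone type, with replicate 1 left of replicate 2. H2A is highest on both scales, at 2286 and 4468 TPM. H1 is lowest in TPM, at 26.8 and 63.9 TPM, but in replicate 2 it has more fragments (3114) than H4 (2719).

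The core histones enter the nucleosome in equal numbers, whereas their summed levels in these poly(A) libraries were unequal. The 5 genes with the highest mean TPM, which are Hist1h2ap, Hist1h2af, Hist1h2bc, Hist2h2aa1 and Hist2h2aa2, held 64.7% of the histone TPM in replicate 1 and 75.2% in replicate 2 (mean 69.9 ± 7.41%, SD, n = 2). The other 59 genes summed to 1231 and 1672 TPM. Among those 59 the types were closer: the 14 other H2A genes summed to 350 and 557 TPM, the 14 other H2B genes to 142 and 196 TPM, H3 to 446 and 562 TPM, and H4 to 266 and 293 TPM.

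Because many genes encode the same protein, the 64 genes stood for 27 proteins: 6 H1, 9 H2A, 9 H2B, 2 H3 and 1 H4. One H2A protein of 130 residues came from 9 genes, Hist1h2ap among them, with 1020 TPM in replicate 1 against 2262 TPM in replicate 2. Of these 9, Hist1h2ap alone held most of the sum. The 2 H3 proteins came from 8 genes (Hist1h3b to Hist1h3f and the Hist2 genes), with 257 and 373 TPM, and from 4 genes (Hist1h3a, Hist1h3g, Hist1h3h and Hist1h3i), with 189.2 and 188.8 TPM. The 3-gene H2B protein of Hist1h2bc summed to 362 and 1218 TPM, and the 4-gene H2B protein of Hist1h2bf, Hist1h2bj, Hist1h2bl and Hist1h2bn to 40.1 and 67.6 TPM.

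Near-identical copies limit how far a level belongs to 1 gene. In 44 genes the deposited model and the M21 transcript had the same identifier and length, so its sequence could be compared with all other genes in stretches of 76 bases, the read length. The median share of stretches found in no other gene was 41.1%. The share was under 50% in 26 of the 44 genes and under 25% in 15, and 4 genes (Hist1h1b, Hist1h2aa, Hist2h2be and Hist2h4) shared none. Genes under 50% held 73.8% of the histone TPM in replicate 1 and 71.8% in replicate 2. Hist1h2ap had only 7.37% of its own, and 92.6% of its stretches were also in Hist1h2ao. Hist2h2aa2 had 0%, all of it being also in Gm20634, a transcript of the Hist2 cluster that overlaps Hist2h2aa1 and was listed at 8.19 and 9.98 TPM. Both reads of a pair, and their distance, hold more information than a single stretch of 76 bases.

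**Figure D3:**
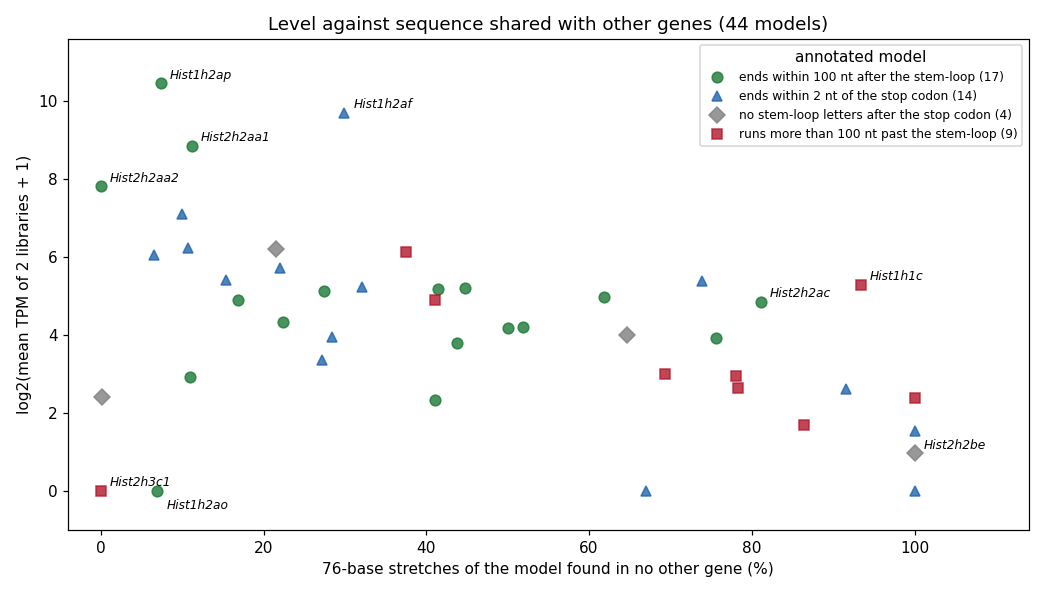
Mean TPM of the 2 libraries as log2(TPM + 1) against the percent of 76-base stretches found in no other gene, for the 44 genes with the same model length in M21, with symbols for where the annotated transcript ends. Hist1h2ap, Hist2h2aa1 and Hist2h2aa2 lie at 7.37%, 11.2% and 0%, and Hist1h1c at 93.4%.

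Summing copies removes the assignment between them, but not with other genes that share their sequence. Hist1h4m and Hist1h4n, whose coding sequences are identical, summed to 32.9 TPM in replicate 1 against 38.3 TPM in replicate 2, while Hist1h4m alone was at 0 and 13.1 TPM. Hist2h3b, Hist2h3c1 and Hist2h3c2 summed to 110 and 174 TPM, from 2698 and 3748 fragments. Gm20634, which is not in that sum, holds 78.5%, 100% and 62.5% of their stretches and had 1133 and 1076 fragments. Hist1h2bq and Hist1h2br summed to 4.15 and 4.85 TPM, of which Hist1h2br has 0.169% of its stretches to itself. The 8 genes with at least 80% of their own sequence, whose levels least involve other genes, summed to 67.4 TPM in replicate 1 against 93.6 TPM in replicate 2.

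Overlaps on the chromosome add to this. Counted over whole gene spans, introns included, Hist1h1e and Hist1h2be overlap by 496 nt on the same strand. Hist3h2a overlaps the span of Trim17, listed at 0 and 0.06 TPM, by 2146 nt on the same strand. Of the 76-base stretches of Hist3h2a, 30.6% were also in a transcript of Trim17. Hist2h2aa1, Hist2h2aa2, Hist2h2ab, Hist2h3b and Hist1h4b each overlap an annotated antisense RNA, and 17 H2A genes, Hist1h2ap and Hist1h2af among them, overlap an annotated miRNA gene on the opposite strand by 129 to 144 nt. The libraries are stranded, but the sources do not state whether the counting used strand, so for these 20 genes sense and antisense fragments may not have been told apart.

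The annotated 3′ ends of the 44 comparable models fell into 4 kinds. In 14 genes the model ended within 2 nt of the stop codon, and these summed to 901 TPM in replicate 1 against 1719 TPM in replicate 2. In 17 genes it ended within 100 nt after the stem-loop, with 1691 and 3059 TPM. In 9 genes it ran more than 100 nt past the loop, with 109 and 213 TPM, and 6 of these 9 had the polyadenylation signal AATAAA in their last 50 nt. In 4 genes (Hist1h2br, Hist1h4a, Hist2h2be and Hist2h3b) the letters of the loop were not found, and they summed to 81.1 and 105 TPM. The 20 genes whose model differs between the annotations are in none of these sums. Hist1h2bc (321 and 1154 TPM) is one of them, and its M21 transcript runs 742 nt past the stop codon with no loop letters.

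Hist1h2ap is of the short kind: its model ends 3 nt after the loop shown above. Hist1h1c is of the long kind, with 840 nt after its loop and AATAAA in the last 50 nt. Both kinds thus had fragments in both libraries, and among the 44 comparable models the 26 with a loop held 1691 and 3059 TPM in the short kind against 109 and 213 TPM in the long kind. In fragments the gap was smaller, with 23820 and 34538 in the short kind against 4898 and 8037 in the long kind. Most of the short sum lies in Hist1h2ap, Hist2h2aa1 and Hist2h2aa2, which share most of their stretches with other genes. Deposited transcript models of more than 1000 nt, 14 models of 10 genes, held 2.44% and 2.53% of the histone TPM. Their share of the histone fragments was 9.41% and 8.78%. These shares depend on the annotation: Hist1h2bc, with 321 and 1154 TPM, has a deposited model of 736 nt but 1156 nt in M21. Among others, Hist1h1d, Hist1h3d and Hist1h4d also pass 1000 nt only in M21, with 7425, 1249 and 1138 nt. Since a fragment count per model does not show where a transcript ended, whether these fragments came from polyadenylated transcripts was not tested.

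Some RNAs that carry no poly(A) tail had many fragments in the same libraries. Rn7sk, the RNA of the 7SK particle, had 75398 fragments in replicate 1 and 80883 in replicate 2. Rmrp, the RNA of the RNase MRP enzyme, had 25988 and 6197 fragments, and Rpph1, the RNA of RNase P, had 20475 and 4115 fragments. Terc, the telomerase RNA, had 9 and 18 fragments. These 4 genes were chosen with values of these data known. Rn7sk was near equal between the libraries, while Rmrp and Rpph1 were higher in replicate 1, opposite to the histone sum, and Terc was low in both. Their part in the histone levels was not tested.

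Many H2A and H2B genes lie head to head and are read in opposite directions from a shared stretch of DNA. There were 12 such pairs, with start codons 278 to 334 nt apart. The H2A gene was higher in both libraries in 6 pairs and the H2B gene in 2. In 3 pairs the order differed between the libraries, counting Hist1h2ao with Hist1h2bq, where the only value above 0 was 0.35 TPM. Hist1h2aa with Hist1h2ba was at 0 throughout. These counts of pairs use the levels as deposited, which for close copies depend on how shared fragments were assigned.

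The partners of the highest genes were low. Hist1h2ap had 836 TPM in replicate 1 against 1972 TPM in replicate 2, while its partner Hist1h2br had 4.15 and 4.50 TPM. Hist1h2ap shares 92.6% of its 76-base stretches with Hist1h2ao, and Hist1h2br shares 99.8% with Hist1h2bq, which form another pair. The split between these 2 pairs thus depends on how shared fragments were assigned. Summed over both pairs, the H2A genes had 836 and 1972 TPM and the H2B genes 4.15 and 4.85 TPM. Hist1h2bc had 321 and 1154 TPM, while its partner Hist1h2ac had 13.7 and 11.9 TPM. Hist2h2ac had 32.4 and 23.5 TPM, and Hist2h2be 0.78 and 1.13 TPM. By contrast Hist1h2ag and Hist1h2bj had 19.6 and 14.9 TPM in replicate 1 and 18.5 and 19.7 TPM in replicate 2. Hist1h2ae and Hist1h2bg had 32.7 and 39.5 TPM in replicate 1, and 49.8 and 61.8 TPM for replicate 2.

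**Figure D4:**
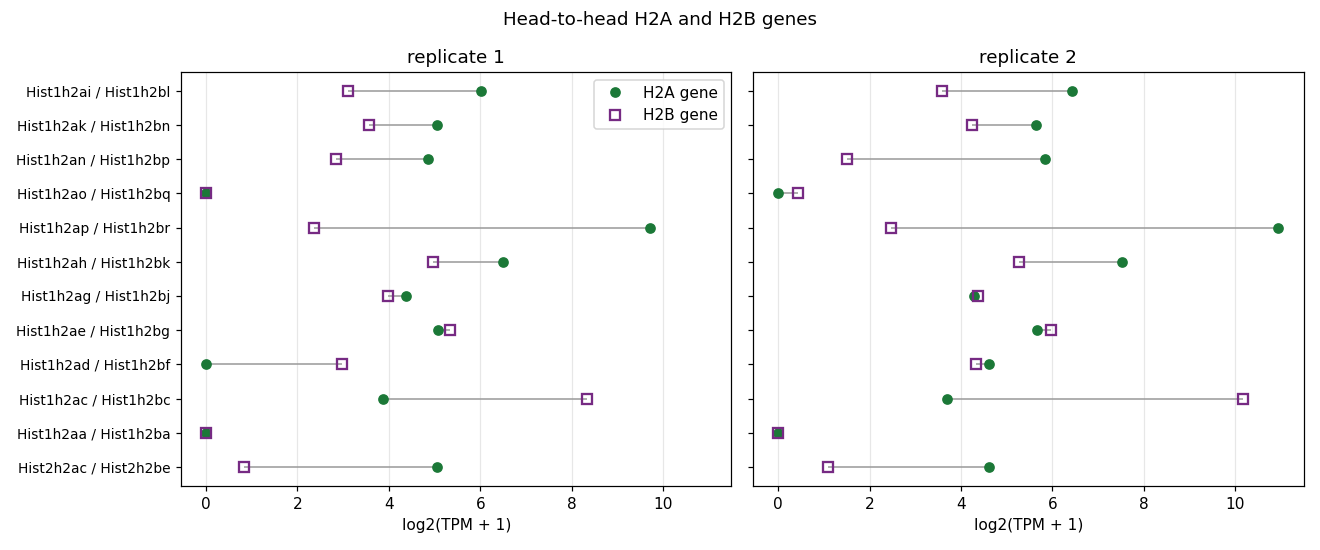
Level as log2(TPM + 1) of the H2A gene (filled circle) and the H2B gene (open square) of 12 head-to-head pairs, replicate 1 left and replicate 2 right. The lines for Hist1h2ap with Hist1h2br (836 and 4.15 TPM in replicate 1) and for Hist1h2ac with Hist1h2bc (13.7 and 321 TPM) point in opposite directions. Hist1h2ap and Hist1h2br have near-identical copies in the pair of Hist1h2ao and Hist1h2bq, so the split between these pairs depends on fragment assignment.

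Promoter letters differed by type. In the 250 bases before the RefSeq start, on either strand, the 6 letters TATAAA, the 5 letters CCAAT and the octamer ATTTGCAT were searched in the 62 of 67 annotated genes with a promoter in the RefSeq table. CCAAT occurred in 82.3% of them, against 33.8% of 32851 promoters of all genes. TATAAA occurred in 46.8%, against 12.4%, and the octamer in 20.97%, against 1.60%. The octamer was present in 7 of 18 H2A and 6 of 16 H2B promoters, and in none of the 6 H1, 10 H3 and 12 H4 promoters. CCAAT was in all H1, H2A and H2B promoters, in 8 of 10 H3 promoters and in 3 of 12 H4 promoters. Windows of head-to-head H2A and H2B genes can overlap, as for Hist1h2ak and Hist1h2bn, so the same site may be counted for both genes. Matches are descriptions and not binding sites.

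Printed here are stretches upstream of the low partners of Hist1h2bc and Hist1h2ap, the highest paired genes, which lie on the other side of them. They are the 130 bases before the RefSeq start (GRCm38.p6), 5′ to 3′ on the gene's strand, and capitals mark the 3 motifs on either strand. Hist1h2ac held all 3 and had 13.7 and 11.9 TPM, while Hist1h2br held CCAAT only and had 4.15 and 4.50 TPM.
Hist1h2ac, chr13:23683960-23684089, minus strand: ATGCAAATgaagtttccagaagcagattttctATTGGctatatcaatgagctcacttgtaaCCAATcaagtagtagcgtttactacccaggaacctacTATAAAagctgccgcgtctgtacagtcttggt
Hist1h2br, chr13:21833613-21833742, plus strand: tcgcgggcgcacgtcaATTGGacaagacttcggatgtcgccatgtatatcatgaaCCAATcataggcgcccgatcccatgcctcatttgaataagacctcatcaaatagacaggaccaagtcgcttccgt

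Between the libraries, most histone genes had lower TPM in replicate 1, as did most genes. Among the 56 histone genes with a mean of at least 1 TPM, 42 were lower in replicate 1 and 14 higher. The ratio of replicate 1 to replicate 2, taken as log2 of TPM plus a pseudocount of 1, had a median of -0.39 over these 56 genes and -0.66 over 12260 genes passing the same filter, a difference of 0.27. With no filter that difference was -0.33, since the median of all genes was then 0. The log2 ratio of the summed TPM of the 64 genes was -0.95, below the median of all genes. Most of that sum lies in the 5 highest genes. At least 2-fold lower in replicate 1 were 10 of the 56 (17.9%), against 24.9% of all genes. At least 2-fold higher were 2 of the 56 (3.57%), against 3.12%. The deposited credibility intervals lay apart in 37 of the 56 genes, against 79.9% of all genes. Replicate 1 was lower in 29 of the 56 genes (51.8%, against 73.5% of all genes) and higher in 8 (14.3%, against 6.37%). These intervals cover the counting and assignment of fragments and not the spread between animals.

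The genes at least 2-fold lower in replicate 1 included 3 of the highest. The log2 ratio was -1.84 for Hist1h2bc, -1.24 for Hist1h2ap and -1.17 for Hist1h2af. It was -1.40 for Hist1h1c, and -1.36 for Hist1h2bf, which had 6.80 TPM in replicate 1 against 19.1 TPM in replicate 2. Hist1h3d (31.1 and 70.0 TPM), Hist3h2a and Hist1h2ah had ratios of -1.14, -1.06 and -1.01. The other 2, Hist1h2ad (0 and 23.5 TPM) and Hist1h4m (0 and 13.1 TPM), were listed at 0 in replicate 1, with upper interval bounds of 2.18 and 1.43 TPM, and both have close copies. The 2 genes at least 2-fold higher in replicate 1 were Hist1h2bp, with 6.18 TPM in replicate 1 against 1.84 TPM in replicate 2 (ratio 1.34), and Hist2h2ab, with 7.36 and 2.80 TPM (ratio 1.14).

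By type, the median log2 ratio was -0.60 over 16 H2A genes, -0.44 over 12 H2B genes, -0.30 over 4 H1 genes, -0.27 over 11 H3 genes and -0.30 over 13 H4 genes. All of these medians were above the -0.66 of all genes. The log2 ratios of the summed TPM were -0.97 for H2A, -1.54 for H2B, -1.25 for H1, -0.33 for H3 and -0.14 for H4. The split of genes past 2-fold depended on scaling. In TPM, 21.4% of the 56 genes were past 2-fold in either direction, against 28.0% of all genes. With counts scaled by TMM factors, 6 genes were higher and 3 lower in replicate 1 (16.1%, against 10.6% of all genes). After centring on the median gene 10 were higher and 3 lower (23.2%, against 11.4%). Scaling by the spike-in TPM gave 3 higher and 5 lower (14.3%, against 14.9%). The scale moved all genes together: with TMM factors the median was 0.23 over the 56 histone genes and -0.01 over all genes, a difference of 0.25 beside the 0.27 in TPM.

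Genes listed for other organs also differed between the libraries. The 16 genes of the exocrine pancreas list summed to 273495 TPM in replicate 1 against 1765 TPM in replicate 2, led by Ctrb1 and Cela2a, and 15 of them reached 1 TPM in both libraries. The 10 stomach genes summed to 19753 and 51.5 TPM, led by Tff2 and Tff1. The 12 small intestine genes, all present in both libraries, summed to 8219 TPM in replicate 1 against 16969 TPM in replicate 2. Of the 12, 10 were at least 2-fold lower in replicate 1, against 24.9% of all genes, with a median log2 ratio of -2.11 over the list. Alpi was higher there (3759 and 1663 TPM). The 10 lymphocyte genes summed to 8877 and 21965 TPM, mostly from Igha (8009 and 20453 TPM). Over the 9 with a mean of at least 1 TPM the median log2 ratio was -0.72, against -0.66 for all genes. When TPM was rescaled without the pancreas and stomach lists, the median ratio was 0.08 over the 56 histone genes and -0.26 over all genes, and 5 histone genes were at least 2-fold higher and 3 lower in replicate 1 (14.3%, against 13.2% of all genes past 2-fold). The share of histone fragments without these lists was 0.143% in replicate 1 and 0.186% in replicate 2. The part of organ make-up in the difference between the libraries was not tested.

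**Figure D5:**
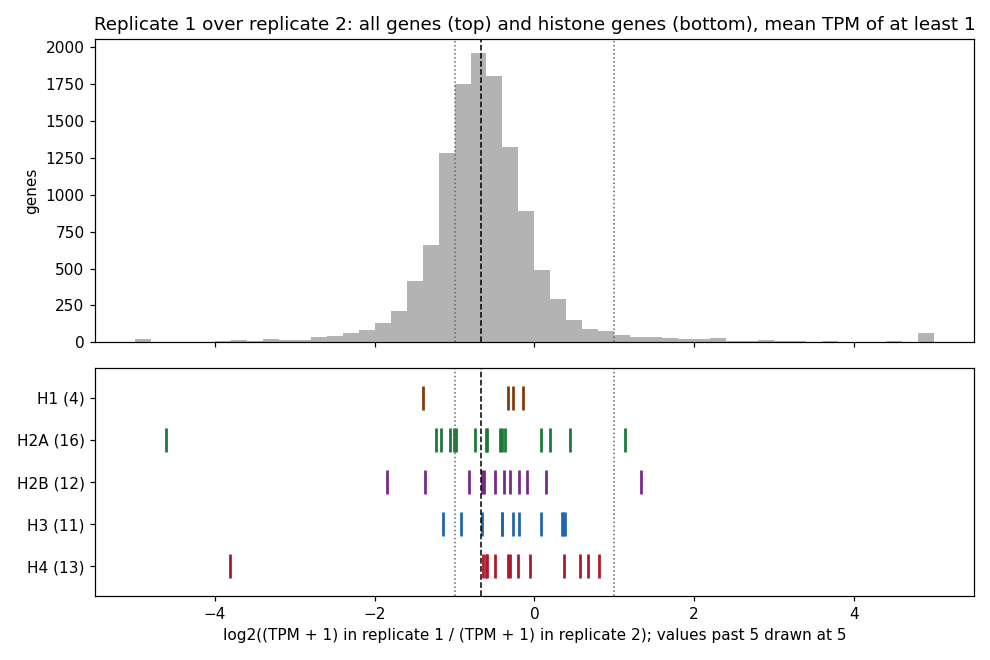
Number of genes (top) and the histone genes as ticks by type (bottom) along log2 of (TPM + 1) in replicate 1 over (TPM + 1) in replicate 2, for a mean of at least 1 TPM, with dotted lines at a 2-fold difference. The dashed line is the median of all genes, -0.66, and 42 of the 56 histone genes lie to its right.

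Replacement histone genes, most of which make ordinary polyadenylated mRNA outside DNA replication as well, give a comparison within each library. The 15 genes of that list summed to 914 TPM in replicate 1 against 1480 TPM in replicate 2. Of the 15, 10 reached 1 TPM in both, against 49.3% of protein-coding genes. H2afz, encoding the H2A.Z variant, had 264 and 327 TPM. H2afj had 136 and 243 TPM, H2afx, the variant phosphorylated at DNA breaks, 145 and 209 TPM, and H3f3a, which encodes replacement H3, 126 and 216 TPM. The summed log2 ratio of the 64 genes over the replacement genes was 1.93 in replicate 1, against 2.19 for replicate 2 (mean 2.06 ± 0.18, SD, n = 2). H2afx is in this list although its transcript holds the stem-loop letters, and without it the mean was 2.29. The ratio was 0.43 in expected counts, and 0.30 without the 5 highest histone genes. Comparing the median gene of each list instead gave -1.62, for genes with a mean of at least 1 TPM, so that the median histone gene was below the median replacement gene.

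A list of 26 symbols covered histone gene transcription, histone mRNA processing and decay, or the cell-cycle control of both. Of these symbols, 23 matched a gene in the tables, and Symplk, Zcchc11 and Zcchc6 did not. A symbol without a match does not show that its gene had no row. Of these 23, 17 reached 1 TPM in both libraries, against 49.3% of protein-coding genes. The 23 summed to 218 TPM in replicate 1 against 379 TPM in replicate 2, with medians of 2.96 and 5.45 TPM. Snrpb, a protein of the Sm ring, had 101 and 182 TPM, Upf1, a helicase needed to degrade histone mRNA, 22.8 and 34.9 TPM, Snrpf, another Sm protein, 25.1 and 31.7 TPM, and Slbp 17.7 and 26.6 TPM. Under 1 TPM in both were Npat, the coactivator of histone gene transcription (0.29 and 0.74 TPM), Eri1, the exonuclease that trims the 3′ end (0.56 and 0.97 TPM), Zfp473, a U7 particle protein (0.06 and 0.15 TPM), and Ccne2, cyclin E2 (0.03 and 0.01 TPM).

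Histone chaperones summed to 60.7 TPM in replicate 1 against 123 TPM in replicate 2. At least 1 TPM in both was reached by 7 of 10, against 49.3% of protein-coding genes. Daxx had 17.1 and 40.0 TPM and Hjurp, the chaperone of the centromeric H3, 18.1 and 18.8 TPM. Hira had 8.53 and 21.3 TPM, and Asf1b 6.24 and 17.8 TPM. Nap1l1 (0.62 and 0.74 TPM), Nasp (0.50 and 0.79 TPM) and Asf1a (0.10 and 0.38 TPM) stayed under 1 TPM in both.

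Proliferation genes, which mark dividing cells, reached 1 TPM in both libraries in 17 of 20 cases, against 49.3% of protein-coding genes. They summed to 163 TPM in replicate 1 against 336 TPM in replicate 2. Ube2c had 31.4 and 74.7 TPM, Pcna, the DNA polymerase clamp, 26.1 and 45.0 TPM, Cdt1 20.9 and 42.0 TPM, and Ccna2, cyclin A2, 19.2 and 42.7 TPM. Their median log2 ratio was -0.91, against -0.66 for all genes and -0.39 for the histone genes. By summed TPM the 2 sets were closer, with log2 ratios of -1.04 for the proliferation genes and -0.95 for the 64 histone genes. Among the 18 proliferation genes with a mean of at least 1 TPM, 7 were at least 2-fold lower in replicate 1 and 0 higher. Over all genes passing the same filter, 24.9% were lower and 3.12% higher. The part of dividing cells in the histone levels was not tested.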

How the data were processed

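Poly(A) RNA-seq of 2 small intestine libraries (1 group) was analysed from the deposited gene and transcript tables, which use mm10 and GENCODE M4 per the deposited text beside them. No source used here names the aligner or quantifier; the column names are those RSEM writes. The tables hold expected counts (estimated counts, not whole), TPM and FPKM made by the authors, each normalized by them over all features including 96 spike-ins, with interval bounds and the percent of each gene held by a transcript, also deposited by the authors. Gene IDs were matched to GENCODE M21 (GRCm38), in which 98.0% of the 43346 gene rows had a symbol, and the members were found by symbol. Sequences came from GENCODE and, for promoters, from RefSeq.

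Per-library values, log2((TPM + 1)/(TPM + 1)) with a mean TPM of at least 1, medians and counts were computed with Python 3.11.15, pandas 2.3.3, numpy 2.4.6 and scipy 1.17.1. TMM factors came from edgeR 4.0.16 and size factors from DESeq2 1.42.0 in R 4.3.3, on counts rounded to whole numbers. With 1 group no test between groups was made and no p-value is given. The scripts were tested on simulated data. The 2 libraries held 45472946 and 45822403 fragments, and a count of 0 allows up to 3 fragments. The members, gene lists and named genes (the highest in each type, the extreme ratios, and genes sharing their protein) were chosen with earlier results of these data known.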

Additional observations from a re-analysis of the deposited data

How the results depend on the processing

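No paired analysis was possible because all samples belong to 1 group. Across 59 settings of the 8 values reported, 44 stayed within the spread of the replicates or within 1.5 times a count. The other 15 did not, and 2 of them changed sign. The cause was not tested beyond the construction of each setting. For a mean with an SD, leaving out 1 of the 2 libraries always stays within that spread, so those settings show no stability. The count past 2-fold was judged by its total alone. Its split went from 2 higher and 10 lower to 6 and 3 with TMM factors, and to 10 and 3 after centring. As a share of TPM the histone genes made up 0.511% (mean of 2 libraries) and without the 5 highest genes 0.0437% of counts. All values without the 5 highest genes or without H2afx were added after seeing the data. The median ratio of histone over all genes, 0.27, was 0.41 at a mean of at least 10 TPM and -0.33 with no filter, where most genes lie at 0. H1 made up 3.35% by expected counts, 1.30% by counts per annotated kilobase and 3.0% without the 5 highest genes, against 0.859% of TPM. Long models, by deposited length, held 3.42% with a limit of 800 nt, 1.04% with 1500 nt and 9.10% by counts, against 2.48%. The log2 ratio to replacement genes was 0.43 by counts, 1.64 per kilobase, 0.30 without the 5 highest genes, 2.29 with H2afx left out of the replacement genes and -1.62 by medians. Leaving out 1 library gave 54 to 57 genes at 1 TPM, 0.112 to 0.185% of counts, 64.7 to 75.2% for the 5 highest genes, 0.769 to 0.948% for H1, 2.44 to 2.53% for long models and 1.93 to 2.19 for the log2 ratio. Values that compare the 2 libraries cannot be given without 1 of them. Depth limits genes of a few fragments, and shared sequence limits the copies.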
